A study of Mus musculus with 10 samples.

Results

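The 7 genes described here encode beta-catenin (Ctnnb1), the 4 TCF/LEF transcription factors that bring it to DNA (Tcf7l2, Tcf7l1, Tcf7 and Lef1) and 2 adaptors that join it to further co-activators (Bcl9 and Bcl9l). They were chosen by name, out of 21938 protein-coding mouse genes in GENCODE M21. Peaks of the aryl hydrocarbon receptor (AHR) were assigned to a gene when they overlapped its body or the 10 kb on either side, a stretch called its window below. The 7 windows spanned 0.794 Mb of the mm10 assembly and held 47 of the 123652 wild type peaks and 0 of the 1931 AHR KO peaks.

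AHR is a transcription factor that moves to the nucleus when a ligand binds it. It was immunoprecipitated from mouse colon organoids, epithelial cultures grown from intestinal stem cells, and the DNA was sequenced (ChIP-seq). The wild type group comprised 4 cultures, each with an AHR ChIP library and an input library of chromatin without antibody, and the AHR KO group comprised 1 AHR ChIP library and 1 input. All cultures of both genotypes grew in medium with Wnt3a, EGF, Noggin and R-spondin and were treated for 1 hour with FICZ, an AHR ligand, at 5 nM. By the paper's methods this medium also held SB202190, an ALK5 inhibitor and nicotinamide. The AHR KO of the study carries floxed Ahr alleles and a Cre driven by the Villin promoter, which acts in intestinal epithelium. Age is not given in the sources used here. Peaks of all wild type cultures stand in 1 list, with no value per culture, and the AHR KO is 1 library by the labels, while the methods describe replicate organoids for both genotypes, so that the number of KO cultures behind it is not known. For these reasons no value below has a replicate error and no test over samples was possible. The lists hold no expression values, so neither the levels of the 7 genes nor the markers of colon epithelium were measured.

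In Wnt signalling, a ligand at the cell surface stops the destruction complex from marking beta-catenin for breakdown. Beta-catenin then enters the nucleus, binds TCF/LEF proteins that already sit on DNA, and turns genes on with the help of BCL9 or BCL9L and the Pygopus proteins. Without beta-catenin the TCF/LEF proteins hold the same genes down through Groucho/TLE co-repressors. In the intestine this pathway maintains the stem cells at the crypt base, and the medium of these organoids supplies it from outside.

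The sequences that follow show what the antibody enriched at these genes. They are read from GRCm38 on the plus strand, and capitals mark the longest unbroken run of CA or TG. Each is the 200 bp around the midpoint of the highest peak of its gene, for 5 of the genes. All 5 are introns or flanks with no annotated exon. The score after each position is that of the authors' list, read here from its values as fold enrichment over background.
Tcf7l2, intron 4, chr19:55869241-55869440, score 10.97: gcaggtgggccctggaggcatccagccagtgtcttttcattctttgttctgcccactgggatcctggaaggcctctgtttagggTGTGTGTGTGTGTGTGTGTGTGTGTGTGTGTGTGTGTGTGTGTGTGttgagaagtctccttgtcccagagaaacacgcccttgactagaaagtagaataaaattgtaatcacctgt
Tcf7l1, intron 11, chr6:72628246-72628445, score 9.3: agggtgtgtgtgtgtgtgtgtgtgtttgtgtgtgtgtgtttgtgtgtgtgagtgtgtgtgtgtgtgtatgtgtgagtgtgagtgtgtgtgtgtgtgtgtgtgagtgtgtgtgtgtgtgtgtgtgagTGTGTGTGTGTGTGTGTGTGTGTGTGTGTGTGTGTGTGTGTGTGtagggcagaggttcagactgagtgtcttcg
Tcf7, upstream, chr11:52287288-52287487, score 4.92: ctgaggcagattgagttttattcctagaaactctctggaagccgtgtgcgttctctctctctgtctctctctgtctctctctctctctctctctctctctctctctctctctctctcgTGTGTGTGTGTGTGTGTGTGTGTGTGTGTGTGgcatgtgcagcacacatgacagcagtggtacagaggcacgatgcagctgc
Lef1, intron 3, chr3:131127762-131127961, score 6.98: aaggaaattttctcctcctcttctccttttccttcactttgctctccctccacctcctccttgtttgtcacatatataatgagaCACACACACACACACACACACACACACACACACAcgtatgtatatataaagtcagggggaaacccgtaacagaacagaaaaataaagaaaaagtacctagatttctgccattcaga
Bcl9l, intron 1, chr9:44497839-44498038, score 7.23: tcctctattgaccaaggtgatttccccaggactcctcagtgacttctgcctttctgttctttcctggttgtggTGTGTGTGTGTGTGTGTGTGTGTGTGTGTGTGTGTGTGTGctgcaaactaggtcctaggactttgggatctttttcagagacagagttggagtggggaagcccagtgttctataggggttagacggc

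All 5 of these peaks sit on a CA repeat with an unbroken run of 32 to 46 bases. In their 200 bp 2 of the 47 peaks (4.26%), and 2.84% of all wild type peaks, held TNGCGTG, the word that AHR recognises with its partner ARNT (N is any base). They are shown for that reason, with capitals marking its core GCGTG on either strand. At Bcl9 the peak lies inside an exon that RefSeq predicts, so only 29 bases around the word are given.
Bcl9, 288 bp upstream of the gene start, chr3:97298254-97298282, score 6.65: tcactcgCACGCACGCcagcagctcggct
Lef1, downstream of the gene, chr3:131227202-131227401, score 3.43: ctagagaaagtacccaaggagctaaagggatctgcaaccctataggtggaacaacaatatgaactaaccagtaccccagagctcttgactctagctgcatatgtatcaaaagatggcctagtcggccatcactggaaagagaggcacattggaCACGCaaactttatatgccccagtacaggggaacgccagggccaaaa
Both words read on the minus strand, as TGGCGTG at Bcl9 and TTGCGTG at Lef1.

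To relate peak number to gene length, the 7 windows were set beside those of all protein-coding genes. At least 1 wild type peak lay in 6 of the 7 windows, where 78.3% of protein-coding genes had one. The count of 47 has an exact 95% Poisson interval of 34.5 to 62.5, which like every interval here covers counting error only. It corresponds to 5.92 peaks per 100 kb (4.35 to 7.87), compared with 4.53 for all protein-coding windows, a ratio of 1.31 (0.961 to 1.74). The interval of the ratio includes 1, so a higher density per length at the 7 genes was not detectable at this number of peaks. Per kb of soft-masked sequence, the part marked as repeat in the genome, the ratio was 1.76 (1.29 to 2.34). That interval lies above 1. Such sequence made up 21.5% of the 7 windows and 36.4% of the genome.

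**Figure D1:**
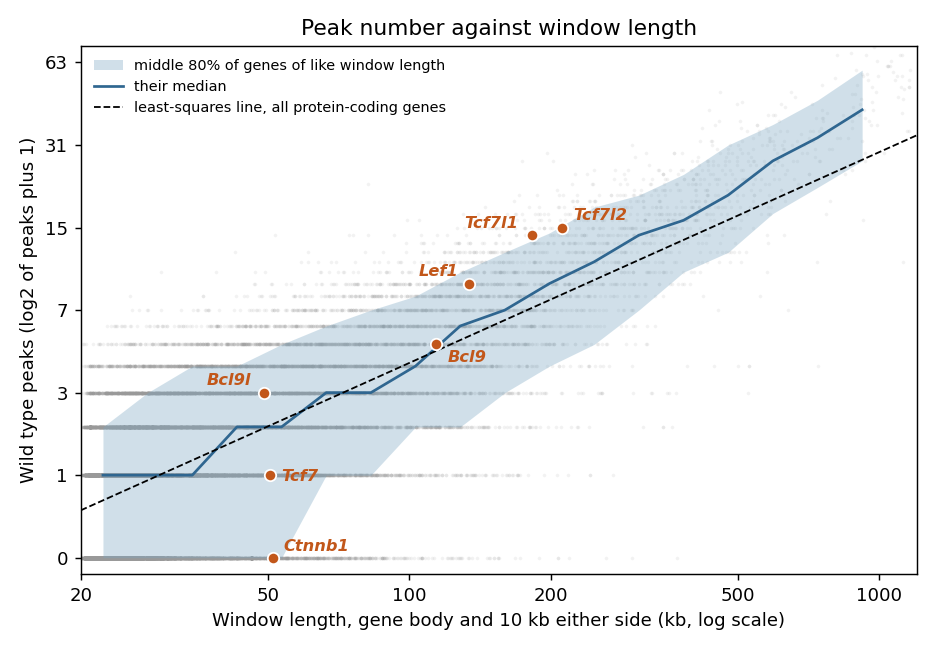
Wild type peaks (vertical axis, log2 of peaks plus 1, labelled in peaks) against window length (horizontal axis, kb, log scale) for all protein-coding genes as grey points, with the 7 genes in orange. The blue line and band are the median and the middle 80% of genes of like window length, and the dashed line is the least-squares line. Tcf7l1, Tcf7l2, Lef1 and Bcl9l lie above the median, Bcl9 lies close to it, and Tcf7 and Ctnnb1 lie below it.

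Peak number followed length across the genome. Over all 21938 genes the slope of log2(peaks plus 1) on log2 window length was 0.769 (SE 0.005) and Spearman's rho was 0.602, a description across genes that overlap and are not replicates. Peaks per 100 kb stayed between 4.32 and 4.63 in each class of window length, from windows under 25 kb to those over 250 kb.

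The 7 genes differ in length, and the longer ones held most of the peaks. The 4 with windows over 100 kb (Tcf7l2, Tcf7l1, Lef1 and Bcl9) held 43 peaks, or 6.69 per 100 kb (4.84 to 9.01). The 3 shorter ones (Tcf7, Ctnnb1 and Bcl9l) held 4, or 2.65 per 100 kb (0.722 to 6.78). These intervals overlap. That of the longer genes lies above the 4.53 of all protein-coding windows, and that of the shorter ones includes it. Tcf7l1 had the highest density at 7.66 per 100 kb (4.19 to 12.8), then Tcf7l2 at 7.08 (3.96 to 11.7), Lef1 at 6.72 (3.07 to 12.8) and Bcl9l at 6.11 (1.26 to 17.9). Bcl9 followed at 4.38 (1.42 to 10.2), Tcf7 at 1.97 (0.05 to 11) and Ctnnb1 at 0 (up to 7.19). Every neighbouring pair in that order overlapped in its interval.

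**Figure D2:**
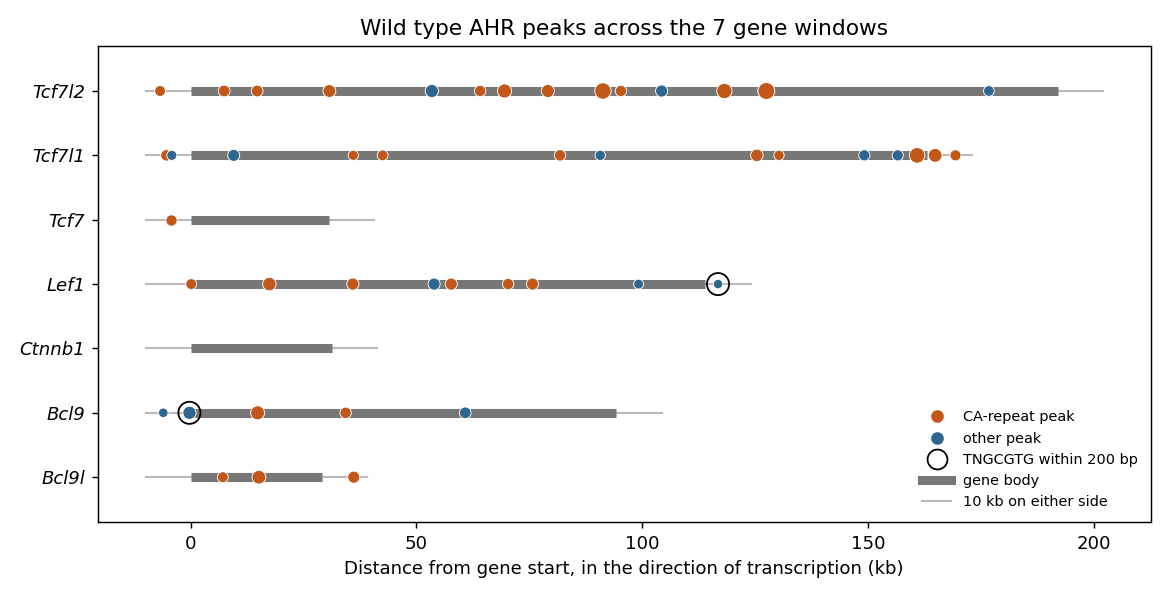
Each row is 1 gene, drawn to scale by distance from its start in kb; thick grey is the gene body and thin grey the 10 kb on either side. Points are wild type peaks with area proportional to score, orange for CA repeats and blue for the rest, and a ring marks TNGCGTG; the peaks at Tcf7l2 lie mostly before 127.5 kb, with 1 more at 176.8 kb, those at Tcf7l1 reach past both ends of the gene, and Ctnnb1 has none.

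Tcf7l2 encodes TCF4, the main TCF partner of beta-catenin in intestinal epithelium, and is the longest of the 7 genes (chr19:55741820-55933654, plus strand). It held 15 peaks, where genes with windows of 169 to 265 kb had a median of 9 (quartiles 6 and 12) and 87.2% of them had fewer. A single peak lay upstream, at 6.8 kb before the start, with a score of 4.6. In intron 3 there were 6 peaks, at 7.4, 14.7, 30.7, 53.4, 64.1 and 69.5 kb, with scores of 5.32, 5.32, 6.31, 6.65, 4.98 and 7.66 in that order. All but the one at 53.4 kb were CA repeats. In intron 4 there were 7, at 79.1, 91.3, 95.3, 104.3, 118.2, 127.1 and 127.5 kb, with scores of 6.58, 10.3, 4.98, 5.65, 8.99, 6.65 and 10.97. Here all but the one at 104.3 kb were CA repeats. The last peak lay in intron 8, at 176.8 kb and with a score of 4.4, and was 100% soft-masked without any CA run. Its 200 bp held a tandem run of 55 bases with a unit of 4 bases. Introns are numbered on the longest coding transcript of a gene.

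Tcf7l2 thus carried the highest scores among the 7 genes. The median of its 15 scores was 6.31 compared with 5.32 for all wild type peaks, and 4 of them reached the top 10% of the list (7.14 or more). The highest, 10.97, exceeded 99.4% of all peaks and would correspond to 32 fragments (exact Poisson interval 21.9 to 45.2) over a background of 2.01, as read from the steps of the scores. Its 200 bp held a run of 46 bases, was 32.5% soft-masked and held the core GCGTG once, outside the run. The peaks at 127.1 and 127.5 kb are separate intervals only 170 bp apart. None of the 15 held TNGCGTG within 200 bp. The peak at 79.1 kb held it in its wider interval of 389 bp, 177 bp upstream of the midpoint. The core GCGTG occurred in 6 of the 15.

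Tcf7l1 encodes TCF3, a family member known mostly as a repressor (chr6:72626378-72789254, minus strand). It had 14 peaks against a median of 8 (quartiles 5 and 10) in genes with windows of 146 to 229 kb, 89.6% of which had fewer. Upstream there were 2 peaks, at 5.4 and 4.2 kb before the start, with scores of 5.04 and 3.89. Intron 3 held 7, at 9.5, 36.0, 42.5, 81.8, 90.7, 125.4 and 130.3 kb, with scores of 5.58, 3.98, 4.49, 4.98, 4.1, 5.98 and 4.1. Most of the peaks at Tcf7l1 were weak, and its median score of 4.77 was below that of the list. Introns 4, 7 and 11 held 1 each, at 149.2, 156.6 and 160.9 kb, with scores of 4.77, 4.76 and 9.3. The other two lay downstream of the gene, at 164.9 and 169.4 kb from the start, with scores of 7.31 and 4.72.

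The strongest part of Tcf7l1 was its 3′ end. The peak at 160.9 kb, whose TG-rich sequence is printed above, and the next one at 164.9 kb were its only 2 in the top 10% of scores. CA repeats made up 9 of the 14 peaks, and 13 of 14 were at least 50% soft-masked. The core GCGTG occurred in 3 and TNGCGTG in 0. The peak at 156.6 kb overlaps an exon of the antisense gene Gm15401, and its 200 bp held a TCF/LEF word (CTTTGAT or CTTTGAA), the only one in the 200 bp around the midpoint of any of the 47 peaks, beside 1 copy of GCGTG. That word lies outside the 182 bp of the peak interval itself.

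Tcf7 encodes TCF1, which occurs in a long form that binds beta-catenin and in short forms without the binding domain (chr11:52252371-52283014, minus strand). Its single peak lay 4.4 kb upstream, with a score of 4.92, and none lay in the gene body. The peak is a compound repeat, with a stretch of CT followed by a TG run of 32 bases, and was 57.5% soft-masked. In genes with windows of 40.5 to 63.3 kb the median was 2 peaks, 22.6% had 1 as Tcf7 did and 15.5% had fewer. The count at Tcf7 is therefore an ordinary one for its length.

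Lef1, a TCF family member that is itself a Wnt target in many tissues, had 9 peaks (chr3:131110471-131224356, plus strand). The median was 6 in genes with windows of 107 to 167 kb, and 78.7% had fewer. The first peak lay 118 bp past the gene start, with a score of 4.57, over the first exon of 3 Lef1 transcripts and an exon of the antisense gene Gm43352. It held 12 CpG, the most of any of the 47 peaks, was 28.5% soft-masked and still carried a CA run of 34 bases. Intron 3 held 5 peaks, at 17.4, 35.9, 53.9, 57.7 and 70.3 kb, with scores of 6.98, 5.65, 5.58, 5.65 and 4.98. A further peak at 75.7 kb, with a score of 5.58, overlapped an exon of 1 short transcript. The last pair, at 99.2 kb in intron 11 and at 116.8 kb beyond the gene's end, had scores of 3.72 and 3.43.

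Of the 9 peaks at Lef1, 6 were CA repeats, with runs of 34 to 58 bases, and these 6 lay between 0.1 and 75.7 kb. The peak at 53.9 kb, within the same stretch, was not one (longest CA or TG run 2 bases). Its 200 bp held a tandem run of 58 bases with another unit of 2 bases. The 2 most distal were 100% soft-masked with no CA run beyond 4 bases. The one beyond the gene's end carried TNGCGTG 56 bp from its midpoint and had the lowest score of all 47 peaks, above only 3.69% of the list.

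Ctnnb1, the gene of beta-catenin, had no wild type peak in its window (chr9:120929216-120960507, plus strand, 51.3 kb with flanks). The nearest ones lay 22.8 kb upstream and 22.1 kb downstream of the gene. At the density of all protein-coding genes 2.32 peaks would fall in a window of this length, and 15.5% of the 4265 genes with windows of 41 to 64.1 kb also had 0. An absence of this kind is therefore not rare, and the exact upper limit of 7.19 per 100 kb lies above the density of all protein-coding genes. The window held 5 CA-repeat sites of 18 to 40 bases, or 9.75 per 100 kb, which is the lowest density among the 7 genes and close to the 10.2 of all protein-coding windows.

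Bcl9 and Bcl9l encode the adaptors between beta-catenin and the Pygopus proteins. Bcl9 had 5 peaks (chr3:97203662-97297917, minus strand), equal to the median of genes with windows of 91.4 to 143 kb. They lay at 6.1 and 0.3 kb before the gene start and at 14.8, 34.3 and 60.8 kb after it, with scores of 3.54, 6.65, 7.56, 5.04 and 5.26. In GENCODE that start belongs to a non-coding transcript, and the coding transcript begins further on, so that all 5 peaks lie 9.7 to 76.7 kb upstream of the coding start. Counting from that transcript in place of the gene line lowers the total at the 7 genes from 47 to 43. RefSeq in addition lists predicted Bcl9 mRNAs with an exon at chr3:97297757-97298402, over the peak at 0.3 kb.

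This peak, 288 bp upstream of the gene start, differed in sequence from the other 46. It was the only one of the 47 that was neither a CA repeat nor at least 50% soft-masked, a class that held 1.21% of all wild type peaks. Its 200 bp held TNGCGTG 63 bp from the midpoint, 4 copies of the core GCGTG and 8 CpG, with 57% GC and 46% soft-masked bases. Its score of 6.65 would correspond to 19 fragments (11.4 to 29.7) and exceeded 84.6% of all peaks. The peak at 14.8 kb also held 4 copies of GCGTG, all within a 100% soft-masked CA repeat, and had the highest score at the gene.

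Bcl9l, a paralog of Bcl9, had 3 peaks (chr9:44482825-44511896, plus strand), where genes with windows of 39.3 to 61.3 kb had a median of 2. The first lay in intron 1, 7.1 kb from the gene start, and scored 4.54, with a run of 50 bases and 11 CpG. The second lay at 15.1 kb in the same intron, 368 bp before the start of a non-coding transcript, and scored 7.23. The third lay at 36.1 kb, beyond the end of Bcl9l and within the gene Cxcr5, and scored 5.65. All 3 were CA repeats. The third was the only one of the 47 with an AP-1 word (TGACTCA or TGAGTCA) in its 200 bp.

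**Figure D3:**
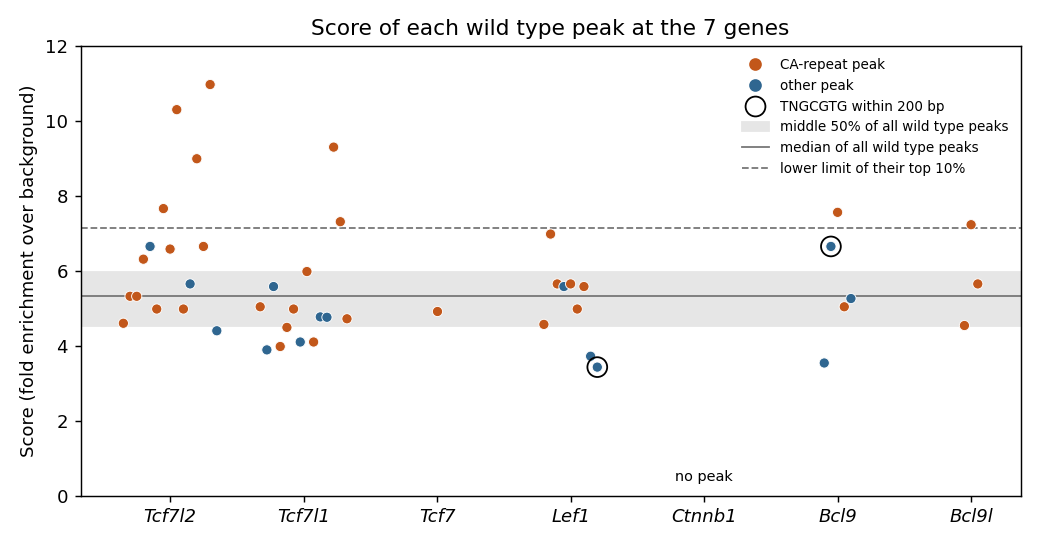
Score of each of the 47 wild type peaks (vertical axis) by gene, read from its values as fold enrichment over background. Peaks run from the 5′ to the 3′ end within a gene, orange for CA repeats and blue for the rest, with rings for TNGCGTG. The grey band, line and dashed line are the quartiles (4.53 and 5.98), the median (5.32) and the lower limit of the top 10% (7.14) of all wild type peaks, and all 8 peaks above the dashed line are CA repeats, as are 88.7% of all wild type peaks above it.

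Across the 7 genes the scores centred where those of the whole list did. The median was 5.32 for the 47 peaks and 5.32 for all wild type peaks, and 24 of the 47 reached it. The top 10% of the list held 8 of the 47, or 17% (95% Wilson interval 8.89 to 30.1). These 8 were 4 at Tcf7l2, 2 at Tcf7l1, 1 at Bcl9 and 1 at Bcl9l. For 19 peaks the score lay on a whole multiple of 0.332 (within 0.0005), from which a pileup of 14 to 32 fragments (median 16) can be read if the score is MACS2 fold enrichment, which was inferred from its values. Of all wild type peaks 51.6% lay on such a multiple. Fragment numbers are therefore a reading of the scores.

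Most of the 47 peaks were repeats inside introns. A CA repeat, defined as CACACA or TGTGTG found at least 3 times without overlap in the 200 bp, was present in 33 of 47 (70.2%, interval 56 to 81.3), where 57.3% of all wild type peaks had one. At least 50% of the 200 bp was soft-masked, that is marked as repeat in the genome sequence, in 37 of 47 (78.7%, interval 65.1 to 88), against 86.0% of all. By location 35 peaks were intronic, 6 upstream, 4 downstream and 2 over an exon, by the gene's own GENCODE transcripts. Among the intronic ones, the peak at 156.6 kb of Tcf7l1 and that at 34.3 kb of Bcl9 touch an exon of another gene (Gm15401 and Gm42508). CA repeats had a median score of 5.58 and the other 14 peaks one of 4.77, compared with 5.65 and 4.65 over the whole list.

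The peaks were then split by sequence and each class was set against window length. CA-repeat peaks numbered 4.16 per 100 kb (2.86 to 5.84) at the 7 genes and 2.78 over all protein-coding windows, which lies below that interval. The other peaks numbered 1.76 per 100 kb (0.964 to 2.96), next to 1.75 over all protein-coding windows. The genomic supply of such repeats differed in the same direction. CA-repeat sites, taken as unbroken runs of at least 18 bases merged within 200 bp, numbered 15.6 per 100 kb in the 7 windows and 10.2 in all protein-coding windows. Taken per CA-repeat site in place of length, the density of all peaks at the 7 genes relative to protein-coding windows was 0.855 (0.628 to 1.14). Like that of the ratio of 1.31 per length, this interval includes 1, so neither gives a direction.

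**Figure D4:**
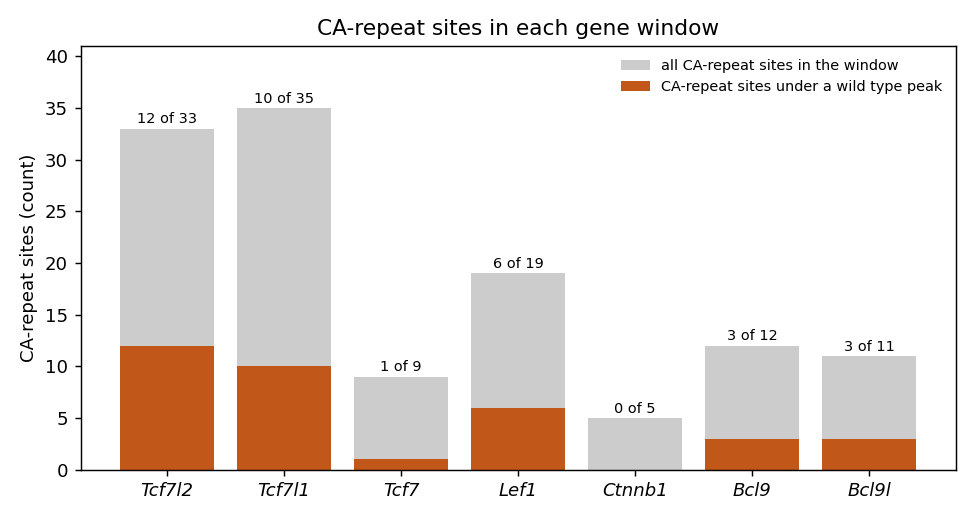
Bars give the number of CA-repeat sites in each of the 7 windows (grey) and the number of those under a wild type peak (orange), on an axis that starts at 0. Tcf7l1 and Tcf7l2 have the most sites, with 35 and 33, and Ctnnb1 the fewest, with 5 and none under a peak.

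Of the 124 CA-repeat sites in the 7 windows, 35 lay under a wild type peak (28.2%, interval 21.1 to 36.7), and the share over the genome was 26.3%. By gene the share was 36.4% at Tcf7l2, 31.6% at Lef1, 28.6% at Tcf7l1, 27.3% at Bcl9l, 25% at Bcl9, 11.1% at Tcf7 and 0% at Ctnnb1. Across all protein-coding genes the number of such sites ranked with peak number at a Spearman's rho of 0.688, beside the 0.602 of window length, again as a description across genes.

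CA-repeat sites under a peak had the longer runs. The median longest run was 44 bases under a peak and 32 bases elsewhere in the 7 windows, and 40 and 34 bases over the genome. Runs of 18 to 29 bases lay under a peak in 2 of 34 sites (5.88%, interval 1.63 to 19.1; genome 13.5%), and runs of 30 to 39 bases in 7 of 42 (16.7%, interval 8.32 to 30.6; genome 24.9%). At 40 to 49 bases the share was 21 of 37 (56.8%, interval 40.9 to 71.3), above the 35.2% of the genome. At 50 bases or more it was 5 of 11 (45.5%, interval 21.3 to 72), close to the 45.3% of the genome.

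**Figure D5:**
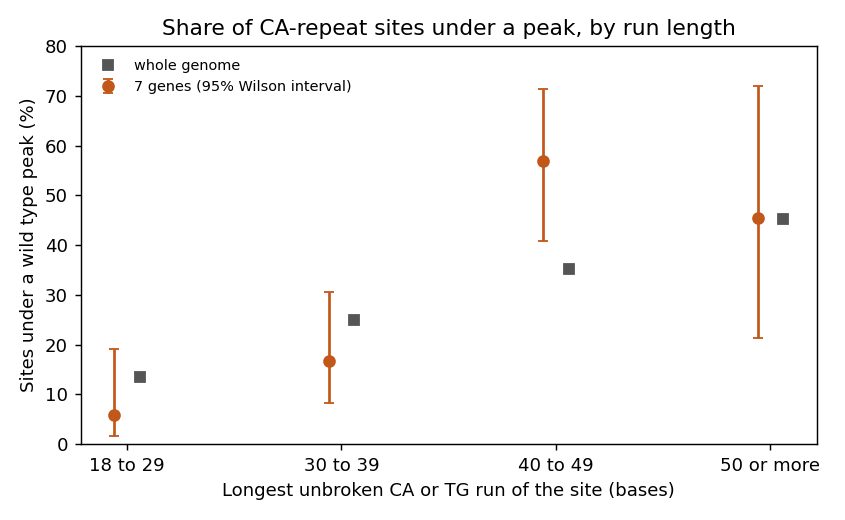
Share of CA-repeat sites under a wild type peak (vertical axis, percent) by the length of the longest unbroken run (horizontal axis, bases), for the 7 windows (orange circles with 95% Wilson intervals) and the whole genome (grey squares). The genome share climbs from 13.5% to 45.3% with run length, and the 7 windows exceed it beyond their interval only at 40 to 49 bases.

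TNGCGTG, the motif of AHR, occurred in 2 of 47 peaks (4.26%, interval 1.17 to 14.2) and in 2.84% of all wild type peaks, a share within that interval. Its core GCGTG occurred in 14 of 47 (29.8%, interval 18.7 to 44) and in 17.7% of all, and 9 of the 14 were CA repeats. The 7 windows held 130 copies of TNGCGTG, or 16.4 per 100 kb, where all protein-coding windows held 7.97. Of the 130 copies, 3 lay in a peak interval (2.31%, interval 0.788 to 6.57), and over the genome the share was 2.71%. Peaks covered 1.54% of the 7 windows. Most copies of the word near these genes thus carried no peak.

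Words of other factors were counted in the same way. The TCF/LEF word occurred in the 200 bp of 1 of 47 peaks (2.13%), against 3.29% of all wild type peaks, and the AP-1 word in 1 of 47 against 1.28%. The TEAD word GGAATG occurred in 0 of 47 (Wilson upper limit 7.56%, or 6.38% as the share of 3 counts), and in 7.24% of all, which lies within the Wilson interval. The windows themselves held 309 TCF/LEF words, 1 of them inside a peak interval (in the wide peak at 14.8 kb of Bcl9), 134 AP-1 words, 2 of them inside one (at 149.2 kb of Tcf7l1 and 36.1 kb of Bcl9l), and 449 TEAD words, none inside one. All words were counted on both strands and GCGTG is part of TNGCGTG.

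Promoters were considered next, from 1 kb upstream to 100 bp downstream of any transcript start. A wild type peak lay at a promoter of 3 of the 7 genes (Lef1, Bcl9 and Bcl9l), where 10.7% of protein-coding genes had one. At Bcl9 and Bcl9l the transcript concerned is non-coding, which leaves Lef1 with a peak at a coding start. RefSeq gives 12 promoters of 250 bases before to 50 after the start for 6 of the genes. None of the 12 overlapped a peak or held TNGCGTG, a word found in 5.07% of all 32851 such promoters. GCGTG occurred in 4 of them, at Tcf7l1, Ctnnb1 and Tcf7l2, and in 32.4% of all.

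The AHR KO list served as the control for antibody signal without the protein. It comes from 1 library, beside 4 for the wild type list, and the depths are not known. Whether a wild type peak without overlap depends on AHR was therefore not tested. No AHR KO peak fell in the 7 windows, and none of the 47 wild type peaks overlapped one (Wilson upper limit 7.56%, or 6.38% as the share of 3 counts). Over the whole list 1.46% of wild type peaks did so, and 4.47% of protein-coding genes had an AHR KO peak. At the AHR KO density of protein-coding genes 0.586 peaks would fall in the 7 windows, so that a count of 0 cannot be read as fewer peaks than elsewhere in that list. The nearest AHR KO peaks lay 24 kb from Bcl9 and 31.3 kb from Tcf7l1. For the other genes the distance ran from 86.7 kb at Lef1 to 1803 kb at Bcl9l.

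To place the 7 genes within their pathway, 4 lists of other members were counted. Axin2 stands both on the list of the destruction complex and on that of TCF and beta-catenin targets. The counts of genes with a peak are to be read against the 78.3% of all protein-coding genes that have one. Of 17 nuclear co-regulators of TCF and beta-catenin, 15 had a wild type peak, at 4.12 per 100 kb (3.25 to 5.14). The density ran from 0 at Tle2, a Groucho co-repressor, and Med12, a Mediator subunit, to 7.03 at Cby1, which binds beta-catenin and opposes it. Of the 9 genes of the destruction complex, 7 had a peak, at 4.34 per 100 kb (3 to 6.06), with Apc2 and Gsk3a at 0 and the scaffold gene Apc at 7.4. All 4 genes that act with beta-catenin at adherens junctions had a peak, at 5.24 per 100 kb (3.16 to 8.19), from 2.05 at Jup (plakoglobin) to 9.21 at Cdh1 (E-cadherin). In the classes of window length that these 4 fall in, 83.8% to 98.9% of protein-coding genes have a peak. Both the co-regulators and the destruction complex thus lay near the 4.53 of all protein-coding genes.

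Of 14 targets of TCF and beta-catenin in intestinal epithelium, 13 had a peak (78.3% of all protein-coding genes do), at 6.4 per 100 kb (4.99 to 8.09). This list was chosen with results of these data known, and holds genes that the study itself examined as AHR targets, so its density is not independent evidence. Without Ephb2, a gene singled out after its values were seen, the density was 5.65 (4.19 to 7.45), an interval that includes the 4.53 of all protein-coding genes. Leaving out any other single gene kept the lower limit above it, from 4.71 without Lgr5 to 5.35 without Znrf3. Per CA-repeat site the ratio of the list to protein-coding windows was 1.09. The cyclin gene Ccnd1 had 0 and Sox9, a transcription factor of crypt progenitors, had 11.7 per 100 kb, from 3 peaks in 25.5 kb. Sox9 was also the only gene of the 4 lists with a TNGCGTG peak at a promoter. All 3 peaks at Sox9, this one included, were CA repeats. No gene of any list held an AHR KO peak.

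Classical AHR targets were read as a check of the wild type list. Cyp1a1 had 3 peaks with a highest score of 18, Cyp1b1 had 1 of 10.8, and Ahrr had 7 with a highest score of 11. The highest peak of each held TNGCGTG 2 or 3 times, was not a CA repeat and was at most 2% soft-masked. None had an AHR KO peak. The highest scores at Tcf7l2, 10.97 and 10.3, lay beside those of Cyp1b1 and Ahrr, and both of these Tcf7l2 peaks were CA repeats without TNGCGTG.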

How the data were processed

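AHR ChIP-seq was carried out by the authors on 4 wild type libraries and 1 AHR KO library with matched inputs, as the labels give them; the number of cultures in the AHR KO library is not known. They aligned 101 bp single-end reads to mm10 with BWA 0.7.15, marked duplicates with Picard 2.1.1, called peaks with MACS2 2.1.1 against input and annotated them with HOMER 4.8. The 2 deposited lists give positions and a score, which was read from its values as a fold enrichment, a ratio of pileup to background with 1 added to each. How reads of several map positions were treated, and the depth of each library, are not given in the sources used here. Starts were taken as 0-based and are printed with 1 added.

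Peaks were counted by an overlap of at least 1 bp with GENCODE M21 windows in Python 3.11.15 (numpy 2.4.6, pandas 2.3.3, scipy 1.17.1). Motifs and repeats were read in 200 bp around each midpoint, with soft-masked (lower case) bases, promoters and predicted exons from RefSeq for GRCm38. Shares have 95% Wilson intervals and counts exact Poisson intervals. Peaks and genes are not replicates and no test was run. The members and lists were chosen with earlier results of these data known. Pathway genes are named for an AHR KO peak, the highest or lowest density, or a TNGCGTG promoter peak. Alternatives covered window, score, overlap and motif limits and leaving out each gene. The counting and motif scripts were tested on simulated data. The sequence of the highest peak at Bcl9 is not reported here.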

Additional observations from a re-analysis of the deposited data

How the results depend on the processing

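The number of wild type peaks at the 7 genes was 37 in gene bodies alone, 39 with 2 kb flanks and 43 with the longest coding transcript. It was 94 with 50 kb flanks, 24 at or above the median score and 8 in the top 10% of scores. The number of AHR KO peaks rose from 0 to 2 with 50 kb flanks, 1 each at Bcl9 and Tcf7l1. The share with TNGCGTG was 0% in the top 10% of scores, 6.38% over the whole peak, and 29.8% for the core alone. The share of CA repeats was 100% in the top 10% of scores, where 88.7% of all wild type peaks are CA repeats. The share soft-masked was 44.7% at a limit of 75%. The density ratio of 1.31 (0.961 to 1.74) became 0.855 (0.628 to 1.14) per CA-repeat site. It thus falls below 1 when CA-repeat sites replace length, with both of these intervals including 1. Per soft-masked kb the ratio was 1.76 (1.29 to 2.34), an interval that lies above 1. In the top 10% of scores it was 2.02, which rests on 8 peaks and was given no interval. The slope was 0.432 over gene bodies and 0.666 on CA-repeat sites. Leaving out any single gene kept the ratio between 1.19 and 1.4. No paired analysis was possible because wild type cultures are not kept apart in the peak lists, and leaving out each culture was not run for the same reason.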
